A study of Mus musculus with 30 samples.

Results

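RAFi/MEKi-treated tumours of the clone 14559R were compared with untreated tumours of its partner clone 14559TN. The labels give 3 tumours a group, so 6 of the 30 libraries in the series entered the comparison, chosen by clone and treatment alone. YUMM1.7 is a mouse melanoma cell line with a mutant Braf and without functional Cdkn2a, and all 6 tumours came from it. The clones were isolated with CaTCH, a method that pulls 1 barcoded lineage out of a mixed population, and were injected under the skin of C57BL/6 animals. The letters TN and R are not spelled out in the labels, and the drugs behind RAFi/MEKi are named only as a class. Each of 14559TN and 14559R is 1 clone, so the 3 tumours of a group replicate the tumour and not the clone. Clone and drug both change between the groups and cannot be told apart from this contrast alone. The levels in untreated 14559R and in treated 14559TN, with 3 tumours each, are therefore given beside it for part of the genes and lists. These groups share a clone with one side or the other. The ages of the animals, the dose and the time on drug were not given in the sources used here.

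In Braf-mutant melanoma the mutant kinase drives MEK and ERK, and ERK in turn induces immediate-early transcription factors, D-type cyclins and its own feedback inhibitors (the dual-specificity phosphatases and Sprouty proteins). Inhibitors of RAF and MEK lower that output. Melanoma cells that grow under such drugs are known for restored ERK signalling, for signalling from other receptor kinases and for changes of cell state towards mesenchymal, neural crest-like or pigmented profiles. Low oxygen stabilises the HIF transcription factors, which induce glycolytic enzymes and angiogenic factors, while the transcription factor ATF4 induces amino acid transporters and synthetic enzymes.

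Tumours were dissociated, and live cells with strong GFP signal were sorted after a stain for the immune marker CD45. Poly(A) RNA was sequenced from the 3' end with the Lexogen QuantSeq kit, so 1 read stands for 1 transcript end and levels are given as CPM, counts scaled to the library size, with no length term. The 6 libraries held 3287743 to 4531662 gene counts and 15950 to 16305 genes with a count. Spearman correlations across genes were 0.984 to 0.985 among untreated 14559TN tumours, 0.969 to 0.978 among treated 14559R tumours and 0.935 to 0.954 between the groups. Treated 14559R replicate 3 stood apart on the first principal component of the 30 libraries, at 43.9 against 22.8 and 28.5 for its group. Untreated 14559TN tumours lay at -3.4 to -2.3. Untreated 14559R tumours lay at 34.1 to 46.2, a range that included treated 14559R replicate 3. The reason for its position was not tested, and results that rest on this replicate are given without it. Mitochondrial transcripts made up 0.102% to 0.157% of counts in treated 14559R and 0.147% to 0.191% in untreated 14559TN. Cdkn2a averaged 3.57 ± 0.913 and 2.29 ± 1.2 CPM (SD, n = 3) in the untreated 14559TN and treated 14559R tumours, and where these reads lie relative to the change in the line was not examined. The pigment enzyme gene Dct had no count in any library and the neural crest receptor gene Ngfr had 1 count in all 6.

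Of 13286 genes tested, 1151 (8.66%) were higher and 850 (6.4%) were lower in treated 14559R at an adjusted p under 0.05 in edgeR's quasi-likelihood test with Benjamini-Hochberg adjustment. Among these, 293 rose and 177 fell by more than 4-fold. The 3 tumours of one group did not overlap with the 3 of the other in 4564 of all 13286 tested genes (34.4%), and in 1917 of the 2001 called genes. The median log2 difference over all tested genes was 0.00, so a list's median is read against a background of no shift. The called members of a list are read against the 8.66% higher and 6.4% lower of all tested genes. The number called depended on single libraries: leaving out treated 14559R replicate 3 left 736 higher and 490 lower, leaving out untreated 14559TN replicate 1 left 739 and 562, and leaving out untreated 14559TN replicate 2 left 763 and 599.

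**Figure D1:**
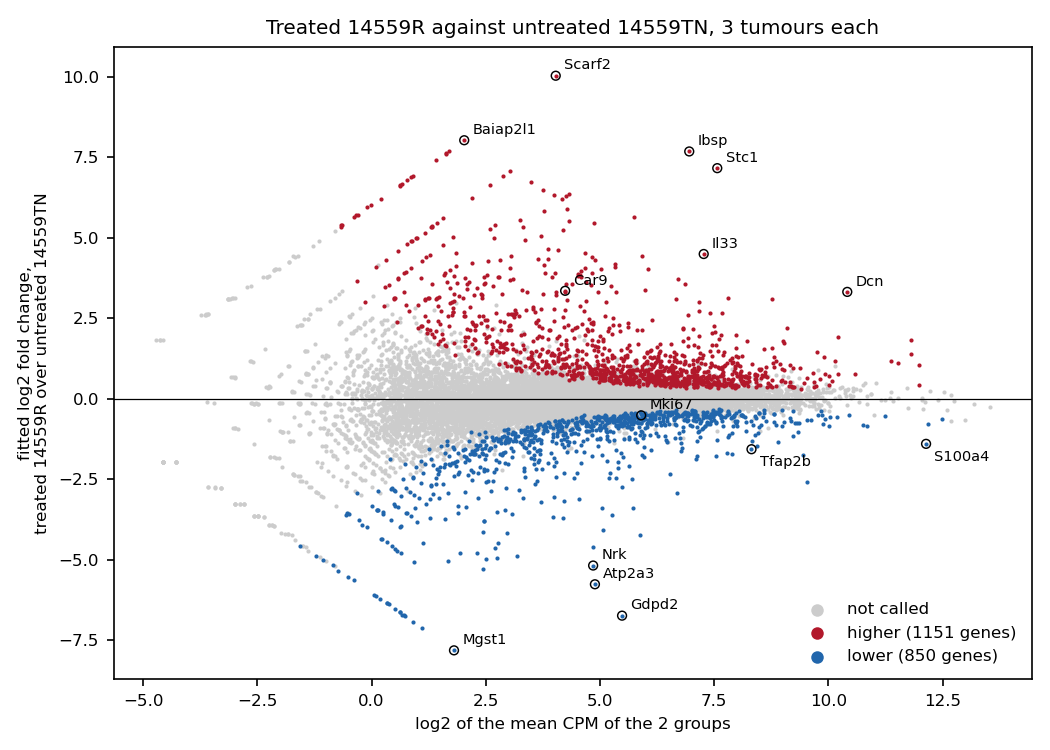
Each point is 1 tested gene with a count in either group. The x axis is log2 of the mean CPM of untreated 14559TN and treated 14559R, the y axis is the fitted log2 fold change of treated 14559R over untreated 14559TN, coloured points are the 1151 higher and 850 lower genes, and labelled genes are among those described in the text.

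The genes with the largest rises were at or near 0 in untreated 14559TN. Scarf2, a scavenger receptor family gene (chromosome 16, 17797282 to 17808293, GRCm38), had no count in the 3 untreated 14559TN tumours and 42.2, 26.4 and 29.5 CPM in the treated 14559R tumours. That is at least 123-fold higher, taking a floor of 3 counts over the untreated 14559TN group. Stc1 encodes the secreted glycoprotein stanniocalcin-1 (chromosome 14, 69029238 to 69041804). It measured 3.55, 1.84 and 2.27 CPM in untreated 14559TN and 217, 313 and 600 CPM in treated 14559R, a log2 difference of 7.16 ± 0.70 (SE, edgeR adjusted p = 3.85e-07). Ibsp, the bone sialoprotein gene (chromosome 5, 104299171 to 104311469), went from 0.761, 1.84 and 1.01 CPM to 177, 308 and 254 CPM (7.68 ± 0.74, adjusted p = 5.55e-07). Untreated 14559R tumours averaged 30.2 CPM for Scarf2, 408 CPM for Stc1 and 552 CPM for Ibsp, and treated 14559TN tumours averaged 0.448, 1.53 and 0.0952 CPM. Other genes that the naming rule places among the largest rises were Baiap2l1, Nppc, Dynap, Hapln1, Bicc1, Cacna1b, Pcbd1 and Il10. Of these, Nppc was not called by DESeq2 (adjusted p = 0.533) and Bicc1 was not called in a fit of the 4 groups of the 14559 pair alone (adjusted p = 0.102).

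The neuronal calcium channel gene Cacna1b had 2 counts in untreated 14559TN and 280 in treated 14559R, a ratio of 125 with a 95% counting interval of 34.7 to 1035. Il10, the gene of an anti-inflammatory cytokine, had 3 and 336 counts, a ratio of 100.3 (34.3 to 486). Hapln1, which links hyaluronan to proteoglycans, had 1 and 206 counts, a ratio of 184 (33.1 to 7286). The wide intervals come from the few counts in untreated 14559TN and cover counting error only.

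At the other end, Gdpd2, a glycerophosphodiester phosphodiesterase gene on chromosome X (100729873 to 100738895), fell from 101, 78.7 and 86 CPM to 0.68, 1.47 and 0.253 CPM, a log2 difference of -6.73 ± 0.58 (adjusted p = 3.07e-08). Nrk, a kinase gene also on chromosome X (138914430 to 139010532), fell from 74.9, 36.6 and 57 CPM to 1.59, 1.22 and 1.77 CPM (-5.18 ± 0.49, adjusted p = 2.63e-08). Treated 14559TN tumours averaged 211 CPM for Gdpd2 and 132 CPM for Nrk, and untreated 14559R tumours averaged 1.86 and 1.3 CPM. Atp2a3, a calcium pump gene, measured 58.4, 49.2 and 67.1 CPM in untreated 14559TN and 0.454, 2.69 and 0 CPM in treated 14559R (-5.76 ± 0.88, adjusted p = 0.000157), and treated 14559TN averaged 1.7 CPM. Mgst1, a glutathione transferase gene, had 78 counts in untreated 14559TN and none in treated 14559R, at least 29.0-fold lower. The remaining genes of the lower end were Hacd4, Atoh8, Dapk1, Slit3, Ncald, Sytl4, Rtn4rl1 and Mageh1, and each kept its call under every alternative tried, as did Gdpd2, Nrk, Atp2a3 and Mgst1.

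Glycolytic and hypoxia-induced genes rose together. Of 24 tested members of that list, 19 were higher, none was lower, and the median log2 difference was 1.25. The 19 were Slc2a1, Hk2, Gpi1, Pfkl, Pfkp, Pfkfb3, Aldoa, Tpi1, Eno1, Ldha, Pdk1, Bnip3, Vegfa, Car9, Egln3, Ndrg1, Ankrd37, Ero1l and Slc16a3, which reach from glucose uptake through the glycolytic steps to lactate export. Leaving out single libraries gave 17 to 19 called members. Car9, a membrane carbonic anhydrase gene used as a hypoxia marker, measured 2.28, 3.99 and 3.78 CPM in untreated 14559TN and 28.8, 35.4 and 38.9 CPM in treated 14559R. The log2 difference was 3.36 ± 0.36 (adjusted p = 3.92e-08), and every treated 14559R tumour lay above every untreated 14559TN tumour. Ankrd37, another gene known as a HIF target, went from 9.39, 5.22 and 8.32 CPM to 59, 44.4 and 82.8 CPM (3.00 ± 0.33, adjusted p = 8.03e-08). Hk2, which phosphorylates glucose on entry to the cell, went from 62.2, 72.5 and 71.1 CPM to 223, 248 and 369 CPM (2.03 ± 0.23, adjusted p = 3.09e-07). Vegfa, the angiogenic growth factor, measured 91.1, 99.9 and 90.3 CPM against 180, 218 and 214 CPM (1.12 ± 0.14, adjusted p = 5e-07). For Ankrd37, Hk2 and Vegfa too, the lowest treated 14559R tumour exceeded the highest untreated 14559TN tumour.

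The other 5 tested members were Hk1, Pfkfb4, Gapdh, Pgk1 and Pkm. Pkm, the last kinase of glycolysis, measured 1331, 1649 and 1467 CPM and then 1595, 2250 and 2354 CPM, with overlapping groups (0.48 ± 0.21, adjusted p = 0.122). Gapdh measured 1.01 to 3.28 CPM and Pgk1 3.03 to 4.61 CPM over the 6 libraries. Both genes have many near-identical pseudogenes that can share their reads, so these values are uncertain. The summed level of the 27 listed genes, untested ones included, was 3658 to 4293 CPM in untreated 14559TN and 5634 to 8870 CPM in treated 14559R, against 6148 to 9187 CPM in untreated 14559R and 1367 to 1567 CPM in treated 14559TN.

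Car9, Ankrd37 and Hk2 are shown with the 120 bases before their RefSeq start in GRCm38.p6, because each carries the hypoxia-response core ACGTG there (capitals, on either strand). The windows are chr4:43506906-43507025 on the plus strand for Car9, chr8:45999851-45999970 on the minus strand for Ankrd37 and chr6:82774455-82774574 on the minus strand for Hk2, each printed 5′ to 3′ on the gene's strand.
Car9: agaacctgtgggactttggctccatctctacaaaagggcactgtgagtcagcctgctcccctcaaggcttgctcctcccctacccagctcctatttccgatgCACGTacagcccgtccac
Ankrd37: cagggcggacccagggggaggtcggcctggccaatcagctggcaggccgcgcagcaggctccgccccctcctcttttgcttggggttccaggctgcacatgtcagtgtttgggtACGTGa
Hk2: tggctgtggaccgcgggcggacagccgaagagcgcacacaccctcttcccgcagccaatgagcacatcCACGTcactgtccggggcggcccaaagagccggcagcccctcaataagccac
The core begins 18, 6 and 52 bases before the start in Car9, Ankrd37 and Hk2. In the RefSeq promoter windows of 300 bases (250 before the start to 50 after), ACGTG on either strand was present for 15 of the 22 list genes with a window (68.2%), against 21.8% of all genes. The palindrome CACGTG, bound by other factors, contains it on both strands. A match of these letters is a description and not evidence of binding. High shares were also found in lists with few or no called members. The cell cycle motif TTTGAA was present for 14 of 20 mitosis genes with a window (70%, against 20.2% of all genes). The interferon motif GAAANNGAA was present for 13 of 22 type I interferon genes with a window (59.1%, against 9.76%).

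**Figure D2:**
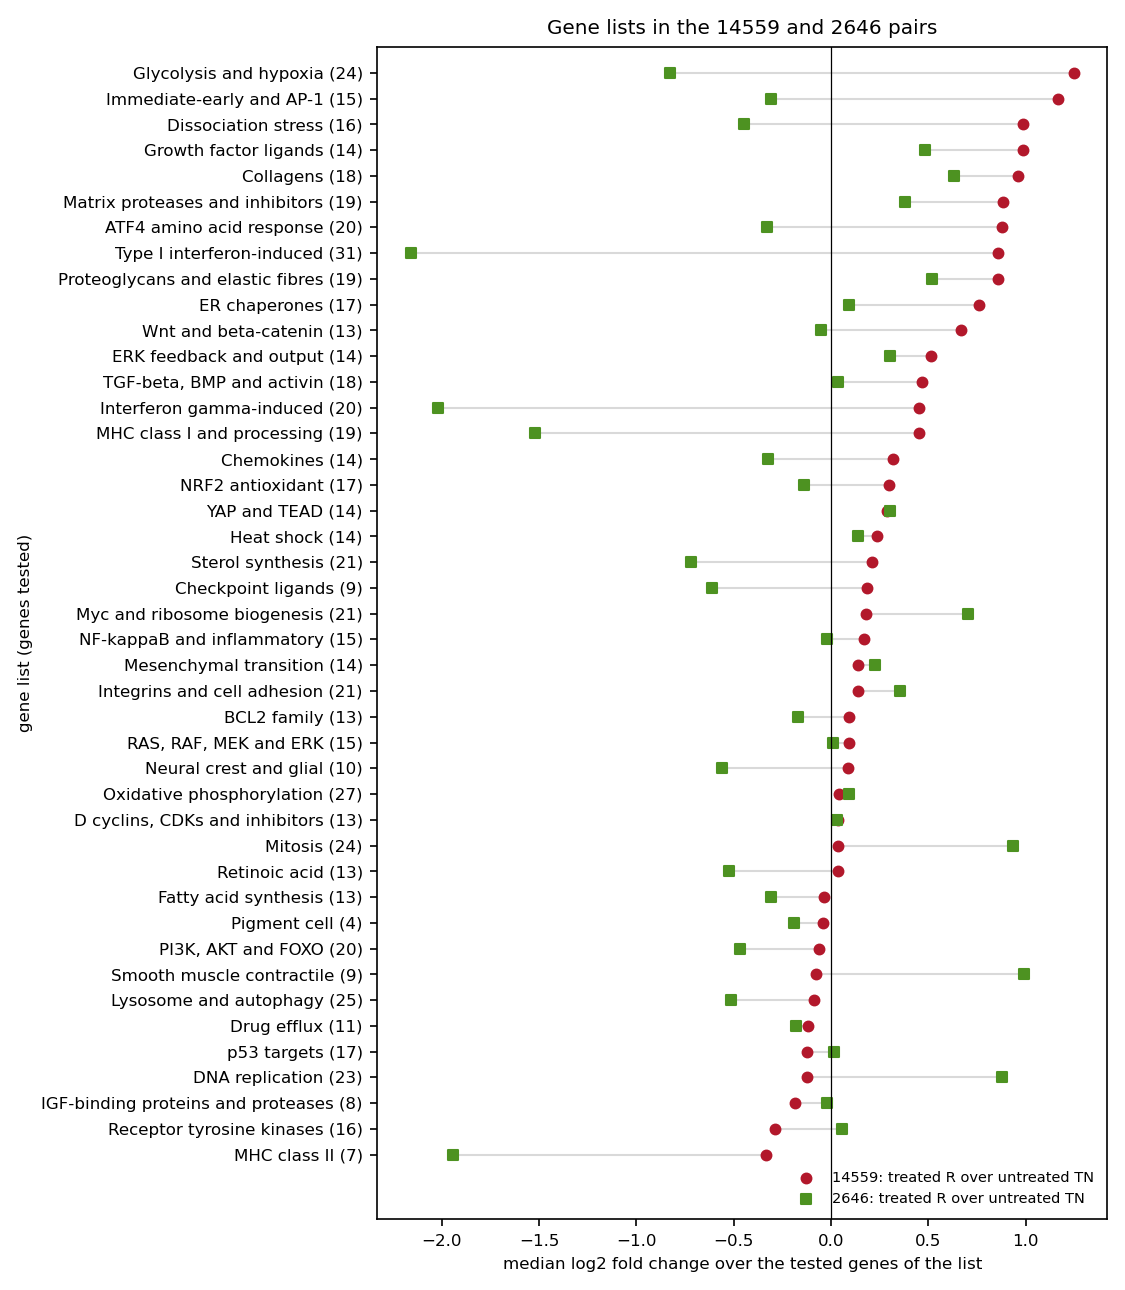
Median log2 difference of the tested members of each pathway list (x axis), for treated 14559R minus untreated 14559TN and for treated 2646R minus untreated 2646TN. The glycolysis and hypoxia list is at 1.25 in the 14559 pair and at -0.83 in the 2646 pair.

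Genes of the ATF4 amino acid response list were higher in part: 11 of 20 tested members were higher and none lower, with a median of 0.88. They were Atf4, Ddit3, Asns, Shmt2, Mthfd2, Chac1, Slc7a11, Slc7a5, Slc7a3, Slc3a2 and Aldh1l2. This count rested on treated 14559R replicate 3, without which 2 members were called. It was also 6, 5 and 6 without untreated 14559TN replicates 1, 2 and 3, 2 in a fit of only these 6 libraries and 7 in a fit of the 4 groups of the 14559 pair. The summed level was 1546, 1403 and 1297 CPM in untreated 14559TN and 1477, 2151 and 3680 CPM in treated 14559R, so the groups overlapped in the sum, and replicate 3 was the highest. Untreated 14559R tumours held 3141, 2831 and 3139 CPM. Slc7a11, the cystine transporter gene, measured 7.36, 5.84 and 3.53 CPM in untreated 14559TN and 22.7, 37.1 and 108 CPM in treated 14559R, with no overlap. Its log2 difference was 3.32 ± 0.55 (adjusted p = 0.000204). It was 2.42 without replicate 3 (adjusted p = 0.000847), and the adjusted p was 0.0523 in a fit of only these 6 libraries.

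The Slc7a11 promoter is shown because it holds the amino acid response core TGATGNAA, once on each strand (capitals). The window is chr3:50443614-50443733 on the minus strand, 120 bases before the RefSeq start in GRCm38.p6.
Slc7a11: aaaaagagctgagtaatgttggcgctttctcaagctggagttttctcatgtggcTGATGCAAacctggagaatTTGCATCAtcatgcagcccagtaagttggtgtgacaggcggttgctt
The matches begin 66 and 47 bases before the start. The core was present on either strand in the 300-base windows of 6 of 17 list genes (35.3%), against 4.51% of all genes.

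Chaperones and folding enzymes of the endoplasmic reticulum also rose: 9 of 17 tested members were higher and none was lower (median 0.76). They were Hspa5, Pdia6, Calr, Hyou1, Manf, Creld2, Herpud1, Xbp1 and Edem1. The summed list held 5170 to 5995 CPM in untreated 14559TN and 7288 to 7739 CPM in treated 14559R. It held 7557 to 8801 CPM in untreated 14559R and 4706 to 5358 CPM in treated 14559TN. Hspa5, which encodes the chaperone BiP, measured 1228, 993 and 1201 CPM in untreated 14559TN and 1868, 2041 and 1888 CPM in treated 14559R. The groups did not overlap, and the log2 difference was 0.76 ± 0.13 (adjusted p = 5.18e-05). Calr, a calcium-binding chaperone that also helps load MHC class I, went from 655, 698 and 786 CPM to 1278, 1299 and 1096 CPM (0.78 ± 0.12, adjusted p = 1.95e-05). Hsp90b1 measured 840, 830 and 963 CPM and 1111, 1122 and 1097 CPM and missed the threshold (0.34 ± 0.12, adjusted p = 0.0593). Antioxidant genes of the NRF2 list were mixed, with 3 of 17 higher and 2 lower. Hmox1, the haem-degrading enzyme, rose from 9.64, 12 and 8.32 CPM to 38.3, 54.2 and 84.9 CPM (2.57 ± 0.50, adjusted p = 0.00107), and Gstm1 fell from 102, 121 and 98.8 CPM to 41.5, 51.8 and 50.5 CPM (-1.16 ± 0.24, adjusted p = 0.00091). Near-identical Gstm paralogs can share 3' reads with Gstm1.

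**Figure D3:**
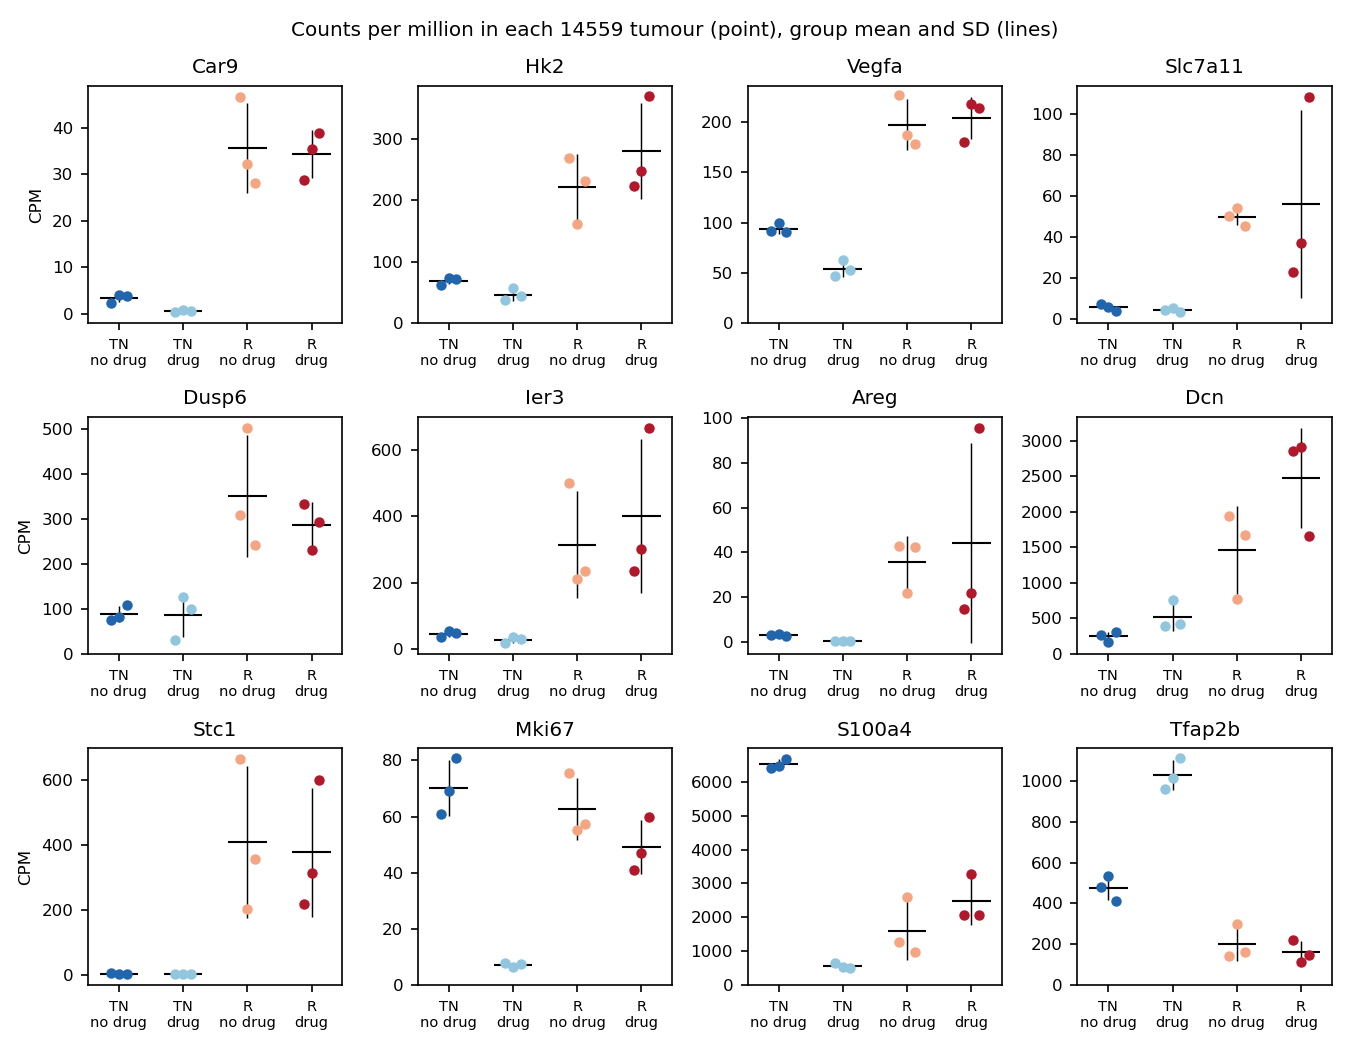
CPM (y axis, linear) of 12 named genes in single tumours (points), with the group mean and SD (lines), for untreated 14559TN, treated 14559TN, untreated 14559R and treated 14559R. Car9, Hk2, Vegfa, Slc7a11, Dusp6, Ier3, Areg, Dcn and Stc1 were higher, and S100a4 and Tfap2b lower, in treated 14559R than in untreated 14559TN, while Mki67 was not called.

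Output genes of the ERK pathway were not lower as a group in the treated tumours. Of 14 tested members of the ERK feedback list, 6 were higher (Dusp4, Dusp5, Dusp6, Spry2, Spred1 and Phlda1) and 1 was lower (Etv1), with a median of 0.51. Etv1 was not called without treated 14559R replicate 3, untreated 14559TN replicate 1 or untreated 14559TN replicate 3. The dual-specificity phosphatase gene Dusp6, which switches ERK off, measured 75.9, 81.1 and 109 CPM in untreated 14559TN and 333, 231 and 293 CPM in treated 14559R. Its groups lay apart (1.68 ± 0.44, adjusted p = 0.0121), but the call was lost without untreated 14559TN replicate 1 (adjusted p = 0.0638) or replicate 2 (0.0566). Phlda1, an ERK-induced gene, went from 212, 252 and 252 CPM to 666, 769 and 967 CPM (1.75 ± 0.15, adjusted p = 1.84e-09). Spry2, which restrains receptor signalling to RAS, went from 75.6, 62.7 and 80.9 CPM to 142, 118 and 122 CPM (0.80 ± 0.15, adjusted p = 0.000221). Dusp4 (1.54 ± 0.33, adjusted p = 0.00119) and Dusp5 (1.47 ± 0.33, adjusted p = 0.00258) rose as well, without overlap. Other outputs of the pathway were not called: Spry4 had a log2 difference of 0.51 (adjusted p = 0.174), and the ETS factor genes Etv4 and Etv5 had 0.11 (0.852) and 0.00 (0.999). In treated 14559TN the means were 86.6 CPM for Dusp6, 247 CPM for Phlda1 and 9.18 CPM for Etv4, against 351, 773 and 121 CPM in untreated 14559R.

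Among the kinases and regulators of the RAS-RAF-MEK-ERK chain itself, 0 of 15 tested genes were higher in edgeR (0 in DESeq2, 2 at an unadjusted p under 0.05) and 1 was lower. This was the scaffold gene Ksr1 (-1.03 ± 0.31, adjusted p = 0.0195), whose call was lost without treated 14559R replicates 2 or 3 or untreated 14559TN replicates 2 or 3 (highest adjusted p = 0.0867). Braf averaged 83.4 ± 0.981 CPM in untreated 14559TN and 78.6 ± 9.3 CPM in treated 14559R (SD of the 3 tumours), with overlapping groups.

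Immediate-early and AP-1 genes showed a fuller rise, with 9 of 15 tested members higher, none lower and a median of 1.17. The 9 were Fosl1, Fosl2, Jun, Junb, Egr1, Egr2, Ier2, Ier3 and Maff, and 7 members were called without treated 14559R replicate 3. The summed list held 1052 to 1144 CPM in untreated 14559TN and 2089 to 3073 CPM in treated 14559R. It held 1931 to 2258 CPM in untreated 14559R and 862 to 1780 CPM in treated 14559TN. Ier3, an immediate-early gene, measured 36.3, 55 and 47.6 CPM in untreated 14559TN and 236, 302 and 668 CPM in treated 14559R (3.12 ± 0.56, adjusted p = 0.000594). Fosl2 rose from 196, 199 and 192 CPM to 314, 346 and 354 CPM (0.79 ± 0.14, adjusted p = 9.93e-05), and Maff from 10.2, 13.8 and 15.4 CPM to 30.6, 46.6 and 75.3 CPM (1.95 ± 0.35, adjusted p = 0.000225). No tumour of one group reached the range of the other in these 3 genes. Fosl1, the AP-1 member most tied to ERK, rose from 48, 36.6 and 59 CPM to 73.5, 83.5 and 166 CPM (1.17 ± 0.31, adjusted p = 0.0115). Its call was lost without treated 14559R replicate 3 (0.71, adjusted p = 0.131) and without untreated 14559TN replicate 2 (0.99, adjusted p = 0.068), and Junb lost its call without treated 14559R replicate 3 or any of the untreated 14559TN tumours. Fosb and Jund were not called, at 0.85 (adjusted p = 0.209) and 0.36 (0.5). Several of these genes also stand in a list of genes that respond to tissue dissociation, of which 5 of 16 tested were higher, and 3 without treated 14559R replicate 3 or any of the untreated 14559TN tumours. That list was 11 in a fit of only these 6 libraries, 8 in a fit of the 4 groups of the 14559 pair and 13 with no filter on low counts. Its sum was 1428 to 1665 CPM in untreated 14559TN and 2447 to 3160 CPM in treated 14559R. The part of dissociation in the AP-1 result was not tested. The AP-1 element TGANTCA on either strand was found in the promoter windows of 0 of 10 list genes and of 8.97% of all genes.

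Few proliferation genes were called. None of 24 tested mitosis genes and none of 27 oxidative phosphorylation genes was called in either direction by edgeR, with medians of 0.04 for both lists. At an unadjusted p under 0.05, 2 mitosis genes were higher and 2 lower and 2 oxidative phosphorylation genes were higher, and DESeq2 called 1 mitosis gene higher and none of the other list. Cdk1, the mitotic kinase, measured 81.5, 59.6 and 94.5 CPM in untreated 14559TN and 130, 102 and 133 CPM in treated 14559R and missed the threshold (0.63 ± 0.22, adjusted p = 0.0524). Mki67, the proliferation marker, measured 60.9, 69.1 and 80.7 CPM and 41, 46.9 and 59.9 CPM (-0.51 ± 0.25, adjusted p = 0.172, 95% interval -1.02 to -0.01). In both genes the tumours of the groups did not overlap, in opposite directions. Of 23 DNA replication genes, the ribonucleotide reductase gene Rrm2 alone was higher (0.91 ± 0.27, adjusted p = 0.018), and it lost the call without treated 14559R replicate 3, untreated 14559TN replicate 1 or untreated 14559TN replicate 2 (highest adjusted p = 0.187). The mitosis sum was 1181 to 1427 CPM in untreated 14559TN, 1256 to 1549 CPM in treated 14559R and 1457 to 2054 CPM in untreated 14559R, while treated 14559TN tumours held 163 to 236 CPM. Ccnd1, the ERK-induced cyclin D1 gene, measured 2407, 2194 and 2579 CPM in untreated 14559TN and 1306, 1763 and 2015 CPM in treated 14559R (-0.50 ± 0.18, adjusted p = 0.0607). DESeq2 called it lower (adjusted p = 0.0461). Of 13 genes of D cyclins and their partners, the inhibitor gene Cdkn2c was the 1 called lower (-0.66 ± 0.19, adjusted p = 0.0126), and not without treated 14559R replicate 3 (adjusted p = 0.114).

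Some genes of secreted growth factors and their receptors were called in each direction. Of 14 tested ligand genes 6 were higher (Areg, Ereg, Hbegf, Hgf, Pdgfa and Igf1) and 2 lower (Fgf7 and Fgf10). The lower count was 0 without treated 14559R replicate 3 or untreated 14559TN replicate 1, and 1 without treated 14559R replicate 1 or in a fit of only these 6 libraries. The ligand list summed to 403 to 448 CPM in untreated 14559TN and 686 to 1022 CPM in treated 14559R. It summed to 919 to 999 CPM in untreated 14559R and 330 to 372 CPM in treated 14559TN. Pdgfa, a ligand of the PDGF receptors, rose from 112, 91 and 94 CPM to 204, 336 and 205 CPM (1.33 ± 0.17, adjusted p = 5.86e-07). The EGF receptor ligand gene Ereg rose from 71.3, 60.2 and 52.9 CPM to 97.3, 204 and 177 CPM (1.37 ± 0.24, adjusted p = 0.000177), and Areg from 3.05, 3.38 and 2.77 CPM to 14.7, 22 and 95.7 CPM (3.84 ± 0.60, adjusted p = 7.59e-05). All 3 ligands were higher in each treated 14559R tumour. Areg was 2.57 without treated 14559R replicate 3, and its adjusted p was 0.0718 in a fit of only these 6 libraries. Hgf, the ligand of MET, rose from 3.05, 4.3 and 4.54 CPM to 17, 26.1 and 18.2 CPM (2.36 ± 0.43, adjusted p = 0.000203). Of 16 receptor tyrosine kinase genes 2 (Egfr and Pdgfrb) were higher and 4 lower. These are 12.5% and 25%, against 8.66% and 6.4% of all tested genes. The higher count was 1 without treated 14559R replicates 1 or 2 or untreated 14559TN replicates 2 or 3, and with the mean level of macrophage markers in each library as a covariate. Egfr rose from 7.61, 12.6 and 5.29 CPM to 47.4, 18.1 and 23.7 CPM (1.83 ± 0.35, adjusted p = 0.000437), and Igf1r fell from 554, 567 and 545 CPM to 347, 368 and 301 CPM (-0.71 ± 0.14, adjusted p = 0.000346). Axl, often high in melanoma cells tolerant of RAF inhibitors, measured 956, 904 and 968 CPM and 719, 766 and 799 CPM and was not called (-0.31 ± 0.13, adjusted p = 0.0975). The lower receptors were Erbb2, Met, Igf1r and Kdr, and 2 were called lower without treated 14559R replicate 1 or replicate 3.

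Downstream of the receptors, the PI3K and FOXO list had 2 of 20 members higher (10%) and 3 lower (15%). The shares over all tested genes were 8.66% and 6.4%, so the higher count was near the background. Ddit4, an inhibitor of mTORC1 that low oxygen and ATF4 also induce, rose from 84.5, 113 and 108 CPM to 412, 346 and 445 CPM (1.98 ± 0.26, adjusted p = 9.49e-06). Irs1, an adaptor of the insulin and IGF receptors, rose from 19.5, 28 and 15.1 CPM to 50.6, 44 and 56.3 CPM (1.28 ± 0.22, adjusted p = 8.16e-05). Pik3ip1, an inhibitor of PI3K, fell from 26.9, 28.9 and 21.4 CPM to 13.6, 11 and 11.6 CPM (-1.09 ± 0.21, adjusted p = 0.000327). No tumour crossed between the groups in these 3 genes. The IGF-binding protein gene Igfbp3 rose from 199, 228 and 225 CPM to 686, 525 and 731 CPM (1.57 ± 0.23, adjusted p = 1.75e-05).

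Extracellular matrix genes rose in treated 14559R. Of 18 tested collagen genes 11 were higher and none lower (median 0.96): Col1a1, Col3a1, Col4a1, Col4a2, Col5a1, Col5a2, Col5a3, Col6a1, Col6a2, Col6a3 and Col15a1. Col15a1, a basement membrane collagen, measured 76.6, 98.6 and 93.8 CPM in untreated 14559TN and 1056, 655 and 612 CPM in treated 14559R (3.11 ± 0.33, adjusted p = 7.61e-07). Col4a1, a core basement membrane chain, rose from 167, 245 and 174 CPM to 671, 467 and 586 CPM (1.56 ± 0.17, adjusted p = 6.27e-08). The fibrillar collagen Col1a2, by contrast, measured 5656, 5127 and 5517 CPM and 8470, 5141 and 5291 CPM, with overlap (0.21 ± 0.26, adjusted p = 0.644). Collagen sums were 14712 to 16019 CPM in untreated 14559TN and 21438 to 31768 CPM in treated 14559R. They were 18668 to 24073 CPM in untreated 14559R and 15792 to 23255 CPM in treated 14559TN, both overlapping with treated 14559R. The proteoglycan and elastic fibre list had 7 of 19 members higher and 1 (Ogn) lower. The lower count was 4 without treated 14559R replicate 1 and in a fit of the 4 groups of the 14559 pair. It was 3 by DESeq2, with no filter on low counts or in a fit of only these 6 libraries, and 2 with the macrophage covariate. Its small leucine-rich proteoglycan gene Dcn (chromosome 10, 97479609 to 97518143) rose from 261, 173 and 309 CPM to 2853, 2916 and 1658 CPM (3.32 ± 0.37, adjusted p = 1.91e-06). Vcan, a large hyaluronan-binding proteoglycan, rose from 435, 425 and 522 CPM to 1506, 950 and 1311 CPM (1.45 ± 0.16, adjusted p = 5.67e-08). Lum, a relative of Dcn, went from 5.58, 1.84 and 4.79 CPM to 117, 75 and 36.9 CPM (4.19 ± 0.57, adjusted p = 1.68e-05). In all 3 proteoglycan genes each treated 14559R tumour was higher than each untreated 14559TN tumour. The proteoglycan and elastic fibre list summed to 6620 to 7123 CPM in untreated 14559TN and 7590 to 10871 CPM in treated 14559R. It summed to 7430 to 8589 CPM in untreated 14559R and 7105 to 8034 CPM in treated 14559TN.

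Several matrix protease genes rose beside the collagens, with 9 of 19 members of the protease and inhibitor list higher. These were Mmp3, Mmp9, Mmp10, Mmp13, Mmp14, Mmp19, Plau, Plat and Serpine2, while the inhibitor gene Timp2 was lower. The summed list overlapped between the groups, at 8614.5 to 9438 CPM in untreated 14559TN and 7988 to 10532 CPM in treated 14559R. It held 6268 to 10551 CPM in untreated 14559R and 10747 to 12021 CPM in treated 14559TN. Plau, the urokinase gene, measured 2.79, 3.07 and 3.78 CPM in untreated 14559TN and 35.8, 44.2 and 55.3 CPM in treated 14559R (3.79 ± 0.39, adjusted p = 4.64e-08). The gelatinase gene Mmp9 measured 7.87, 5.22 and 8.57 CPM and 96.1, 36.9 and 88.4 CPM (3.33 ± 0.57, adjusted p = 0.000365). Neither gene overlapped between the groups, and untreated 14559R averaged 81.6 and 233 CPM for them.

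Several of these matrix genes are fibroblast markers. Of 10 tested fibroblast markers 6 were higher (Col1a1, Col3a1, Dcn, Lum, Pi16 and Postn), none was lower, and the median was 1.49. The 11 markers summed to 8740 to 9585 CPM in untreated 14559TN and to 13278 to 22424 CPM in treated 14559R. They summed to 10545 to 13970 CPM in untreated 14559R and to 10420 to 16738 CPM in treated 14559TN, both overlapping with treated 14559R. The fibroblast marker Pi16 averaged 0.56 and 7.71 CPM, and lost its call without treated 14559R replicate 3 (adjusted p = 0.0742). Pdgfra, a defining fibroblast receptor, measured 417, 366 and 441 CPM and 399, 287 and 244 CPM and was not called (adjusted p = 0.248). In a sorted sample more cells of another type and more RNA per cell cannot be told apart, and the part of fibroblasts in the matrix result was not tested.

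Markers of other cell types were summed in the same way. The 17 macrophage markers summed to 27.4, 59.6 and 108.9 CPM in untreated 14559TN and to 51.2, 51.0 and 25.8 CPM in treated 14559R, with 0 of 14 tested markers called by edgeR, 1 lower at an unadjusted p under 0.05 and 1 lower by DESeq2. Lymphocyte markers reached at most 1.23 CPM in any of the 6 libraries, and neutrophil markers 1.02 to 2.27 CPM and 2.20 to 5.05 CPM in untreated 14559TN and treated 14559R. Endothelial markers summed to 139 to 148 CPM in untreated 14559TN and 218 to 365 CPM in treated 14559R. The VEGF receptor gene Flt1 made up much of that sum in treated 14559R, with 19.3, 23 and 21.2 CPM and 108, 191 and 243 CPM (3.09 ± 0.30, adjusted p = 8.03e-08). The endothelial cadherin gene Cdh5 measured 2.79, 2.77 and 1.01 CPM and 1.81, 2.44 and 36.9 CPM, so its call (adjusted p = 0.0158) rested on treated 14559R replicate 3, and without it the log2 difference was -0.03 (adjusted p = 0.99). Kdr, the main endothelial VEGF receptor, fell from 3.81, 3.69 and 3.53 CPM to 0.227, 0.488 and 0.505 CPM (-3.09 ± 0.87, adjusted p = 0.0133), a call lost without treated 14559R replicate 1 (adjusted p = 0.0532). The adipocyte marker Fabp4 measured 3.4, 0.733 and 16.7 CPM in treated 14559R and at most 0.756 CPM in untreated 14559TN, and its call was lost without replicate 3 (adjusted p = 0.126). Replicate 3 thus held the highest Cdh5, Fabp4 and Pi16 of the group. The 10 pericyte and smooth muscle markers summed to 315 to 387 CPM in untreated 14559TN and 309 to 511 CPM in treated 14559R, with overlap. Of 5 tested, Rgs5 and Pdgfrb were higher and Cspg4 was lower (median 0.93). The higher count was 0 without untreated 14559TN replicate 3 and 1 without any other single tumour, and it was 1 in a fit of only these 6 libraries or with the macrophage covariate. The lower count was 0 without treated 14559R replicate 3.

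**Figure D4:**
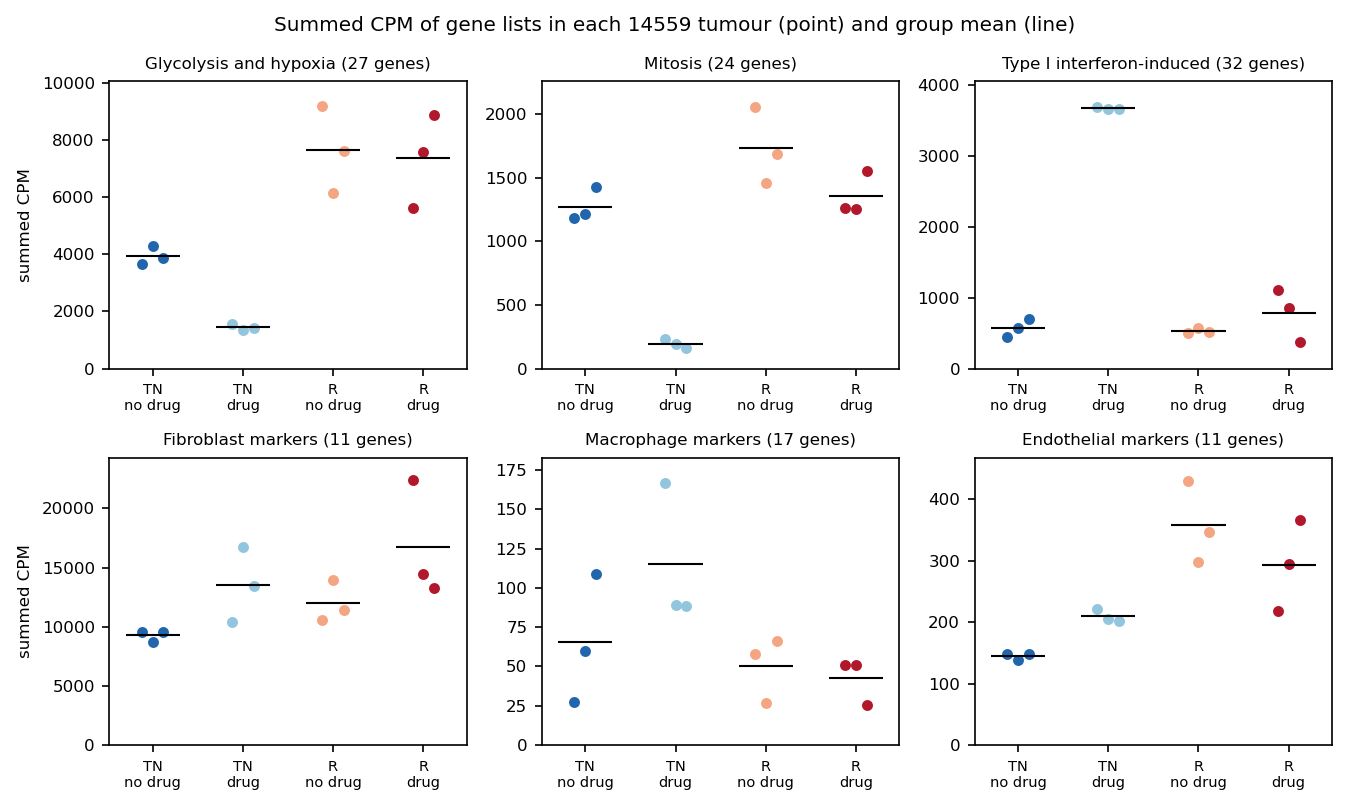
Summed CPM (y axis, linear) of 6 lists in single tumours (points) of the 4 groups of the 14559 pair, with group means (lines). Glycolysis and fibroblast sums are higher in every treated 14559R tumour than in untreated 14559TN, mitosis sums overlap, and interferon sums are highest in treated 14559TN.

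Cell-state genes moved in separate directions. Sox9, a neural crest and progenitor factor, rose from 702, 788 and 604 CPM to 1199, 1621 and 1869 CPM (1.16 ± 0.19, adjusted p = 7.18e-05). Tfap2b, a neural crest AP-2 factor, fell from 482, 535 and 412 CPM to 223, 113 and 146 CPM (-1.57 ± 0.31, adjusted p = 0.00116), and treated 14559TN tumours averaged 1030 CPM. Both genes kept the groups apart. In the mesenchymal list 3 of 14 genes were higher (1 without any 1 of the untreated 14559TN tumours) and 2 lower. The lower ones were the calcium-binding protein gene S100a4, with 6409, 6469 and 6689 CPM and then 2069, 3273 and 2081 CPM (-1.40 ± 0.34, adjusted p = 0.00686), and the repressor gene Zeb2 (-0.91 ± 0.16, adjusted p = 8.78e-05). Twist2, a mesenchymal transcription factor, rose from 7.61, 8.6 and 12.1 CPM to 31.3, 54.5 and 58.3 CPM (2.34 ± 0.47, adjusted p = 0.00105). Vim, the mesenchymal filament, was not called (-0.34 ± 0.21, adjusted p = 0.309).

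Of 17 pigment cell genes, 4 passed the filter on low counts, so most of the pigment programme was too low to test. The melanocyte master regulator Mitf averaged 51.6 ± 0.835 and 52.6 ± 25.1 CPM in untreated 14559TN and treated 14559R (SD of the 3 tumours), with overlap. Sox10, the neural crest and melanocyte factor, had 1 count in untreated 14559TN and 116 in treated 14559R (15, 9.04 and 3.28 CPM), a ratio of 104 with a counting interval of 18.6 to 4103. Sox10 was called (adjusted p = 0.000895), but not in a fit of the 4 groups of the 14559 pair alone (adjusted p = 0.0711). Untreated 14559R averaged 19.5 CPM. Gpnmb, a melanosomal glycoprotein, fell from 209, 183 and 219 CPM to 52.6, 73.3 and 142 CPM (-1.19 ± 0.31, adjusted p = 0.00973, and 0.0905 in a fit of only these 6 libraries).

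Adhesion and developmental signalling genes added single large changes. Of 21 integrin and adhesion genes 5 were higher and 2 lower. The melanoma cell adhesion molecule gene Mcam rose from 4.57, 3.99 and 3.03 CPM to 49.7, 74.5 and 20 CPM (3.63 ± 0.43, adjusted p = 4.53e-07), and the integrin gene Itgb3 from 20.3, 21.8 and 20.4 CPM to 57.1, 102 and 115 CPM (2.13 ± 0.34, adjusted p = 6.47e-05). Itga7, a laminin-binding integrin, fell from 57.1, 49.2 and 49.9 CPM to 17.5, 22 and 23 CPM (-1.32 ± 0.25, adjusted p = 0.000314). The adhesion list had 3 higher members without untreated 14559TN replicate 2 and 3 in a fit of only these 6 libraries. In the TGF-beta list 5 of 18 genes were higher, among them the activin subunit gene Inhba, which rose from 144, 116 and 122 CPM to 368, 550 and 216 CPM (1.57 ± 0.23, adjusted p = 1.79e-05), and 1 was lower. That list had 3 higher members without treated 14559R replicate 2 or 3 or untreated 14559TN replicate 1, and 8 in a fit of only these 6 libraries. The Wnt list had 4 of 13 genes higher and 1 lower, and 2 higher without treated 14559R replicate 1, untreated 14559TN replicate 2 or untreated 14559TN replicate 3. Its member Nkd2, an inhibitor of the pathway, rose from 3.55, 5.84 and 4.03 CPM to 79.1, 39.1 and 35.1 CPM (3.53 ± 0.81, adjusted p = 0.00471), and the Wnt antagonist gene Dkk2 fell from 441, 441 and 517 CPM to 284, 261 and 254 CPM (-0.81 ± 0.17, adjusted p = 0.000946). Of the YAP and TEAD list 1 of 14 genes (7.14%) was higher and 2 (14.3%) were lower (Ptpn14 and Crim1), against 8.66% and 6.4% of all tested genes. The higher one, the transcription factor gene Tead4, went from 2.28, 6.76 and 5.29 CPM to 9.75, 19.5 and 35.6 CPM (2.19 ± 0.40, adjusted p = 0.000211).

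Inflammatory mediators rose in part. The alarmin gene Il33 (chromosome 19, 29925114 to 29960718) rose from 6.85, 20.6 and 12.4 CPM to 239, 384 and 263 CPM (4.50 ± 0.45, adjusted p = 4.53e-07), while Csf1, the macrophage growth factor, fell from 67.5, 62.1 and 79.7 CPM to 31.5, 31.5 and 25.8 CPM (-1.24 ± 0.25, adjusted p = 0.000868). Il33 averaged 451 CPM in untreated 14559R and 33.3 CPM in treated 14559TN. Of 14 chemokine genes 5 were higher (Ccl2, Ccl7, Ccl8, Ccl9 and Cxcl1), and 3 without treated 14559R replicate 3, untreated 14559TN replicate 1 or untreated 14559TN replicate 2. Ccl8, a monocyte attractant, rose from 21.3, 14.8 and 28.5 CPM to 194, 99.9 and 63.9 CPM (2.46 ± 0.46, adjusted p = 0.000623). Ccl9 measured 0.254, 0 and 1.51 CPM in untreated 14559TN and 1.36, 0.733 and 113 CPM in treated 14559R, so it was high in replicate 3 alone, and without that library its log2 difference was 0.75 (adjusted p = 0.771).

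Interferon-induced genes varied widely among the tumours of each group. In the type I interferon list 3 of 31 tested genes (Isg20, Oasl1 and Dhx58) were higher and none lower. The higher share of 9.68% was near the 8.66% of all tested genes, although the list median was 0.86. Ifi27, a gene of that list that is induced by interferon alpha, measured 121, 132 and 137 CPM in untreated 14559TN and 177, 137 and 85.1 CPM in treated 14559R (0.04 ± 0.17, adjusted p = 0.925), so replicate 3 lay below the untreated range. The list count was 7 without treated 14559R replicate 3 and 1 without treated 14559R replicate 1 or untreated 14559TN replicates 1 or 2. It was 1 in a fit of only these 6 libraries and 14 with no filter on low counts. Isg20, an interferon-induced exonuclease, went from 1.02, 3.07 and 3.03 CPM to 10.4, 14.2 and 19.7 CPM without overlap (2.64 ± 0.50, adjusted p = 0.000356). The summed list measured 450 to 694 CPM in untreated 14559TN, 376 to 1110 CPM in treated 14559R and 3661 to 3694 CPM in treated 14559TN. B2m, the MHC class I light chain, measured 3867, 3511 and 5486 CPM and 4144, 5280 and 2994 CPM (-0.05 ± 0.32, adjusted p = 0.943). None of 7 tested MHC class II genes was called by edgeR or DESeq2 (1 was lower at an unadjusted p under 0.05). Of 19 tested genes in the list of MHC class I and antigen processing, 1 was called, the chaperone gene Calr described above. That count was 2 by DESeq2, in a fit of the 4 groups of the 14559 pair and without treated 14559R replicate 3 or untreated 14559TN replicate 3, and it was 7 with no filter on low counts.

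Single genes of drug response and metabolism passed the test as well. The lysosomal protease gene Ctsl rose from 1556, 1616 and 1709 CPM to 3394, 3822 and 3756 CPM (1.17 ± 0.21, adjusted p = 0.000192), within a lysosome list of 25 genes of which 5 were higher (3 without untreated 14559TN replicate 2) and 1 lower. Dhrs3, a retinaldehyde reductase, rose from 32, 24.9 and 22.9 CPM to 84.1, 78.4 and 99.3 CPM (1.71 ± 0.21, adjusted p = 4.16e-07). Pmaip1, which encodes the pro-apoptotic protein Noxa, rose from 3.55, 1.23 and 2.27 CPM to 13.6, 18.6 and 13.4 CPM (2.65 ± 0.39, adjusted p = 9.85e-06). Mcl1, the anti-apoptotic partner that Noxa binds, rose from 164, 119 and 130 CPM to 208, 194 and 227 CPM (0.61 ± 0.14, adjusted p = 0.00329). The tumours of the groups did not overlap in any of these 4 genes. The drug efflux pump gene Abcb1a was higher (1.11 ± 0.34, adjusted p = 0.0227), a call lost without treated 14559R replicates 2 or 3 or any of the untreated 14559TN tumours (highest adjusted p = 0.111). Sterol synthesis had 3 of 21 genes higher (14.3%, against 8.66% of all tested genes), Dhcr7 and Sqle among them. The count was 0 without treated 14559R replicates 2 or 3 or untreated 14559TN replicates 2 or 3, and 1 without untreated 14559TN replicate 1.

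The second clonal pair of the series, 2646, allowed the same kind of contrast with no library in common. In treated 2646R against untreated 2646TN, 1554 genes (11.7%) were higher and 1569 (11.8%) lower in edgeR. Of the 1151 genes higher in the 14559 contrast, 275 (23.9%) were also higher in the 2646 contrast, 134 (11.6%) were lower and 742 were not called. These 275 make up 17.7% of the genes higher in the 2646 contrast. Of the 850 lower genes 202 (23.8%) were lower in both pairs, which is 12.9% of the genes lower in the 2646 contrast, and 76 (8.94%) were higher. Across all tested genes the log2 differences of the pairs had a Pearson correlation of 0.139 and a Spearman correlation of 0.153, as a description over genes of 1 fit. The number lower in the 2646 contrast was 912 without treated 2646R replicate 2 and 1038 without untreated 2646TN replicate 3. The test of the difference between the contrasts called 1002 genes (7.54%) as higher in the 14559 contrast and 864 (6.5%) as lower. All 210 genes called in opposite directions were among these, which follows nearly by itself from opposite calls in 1 fit and adds no support.

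**Figure D5:**
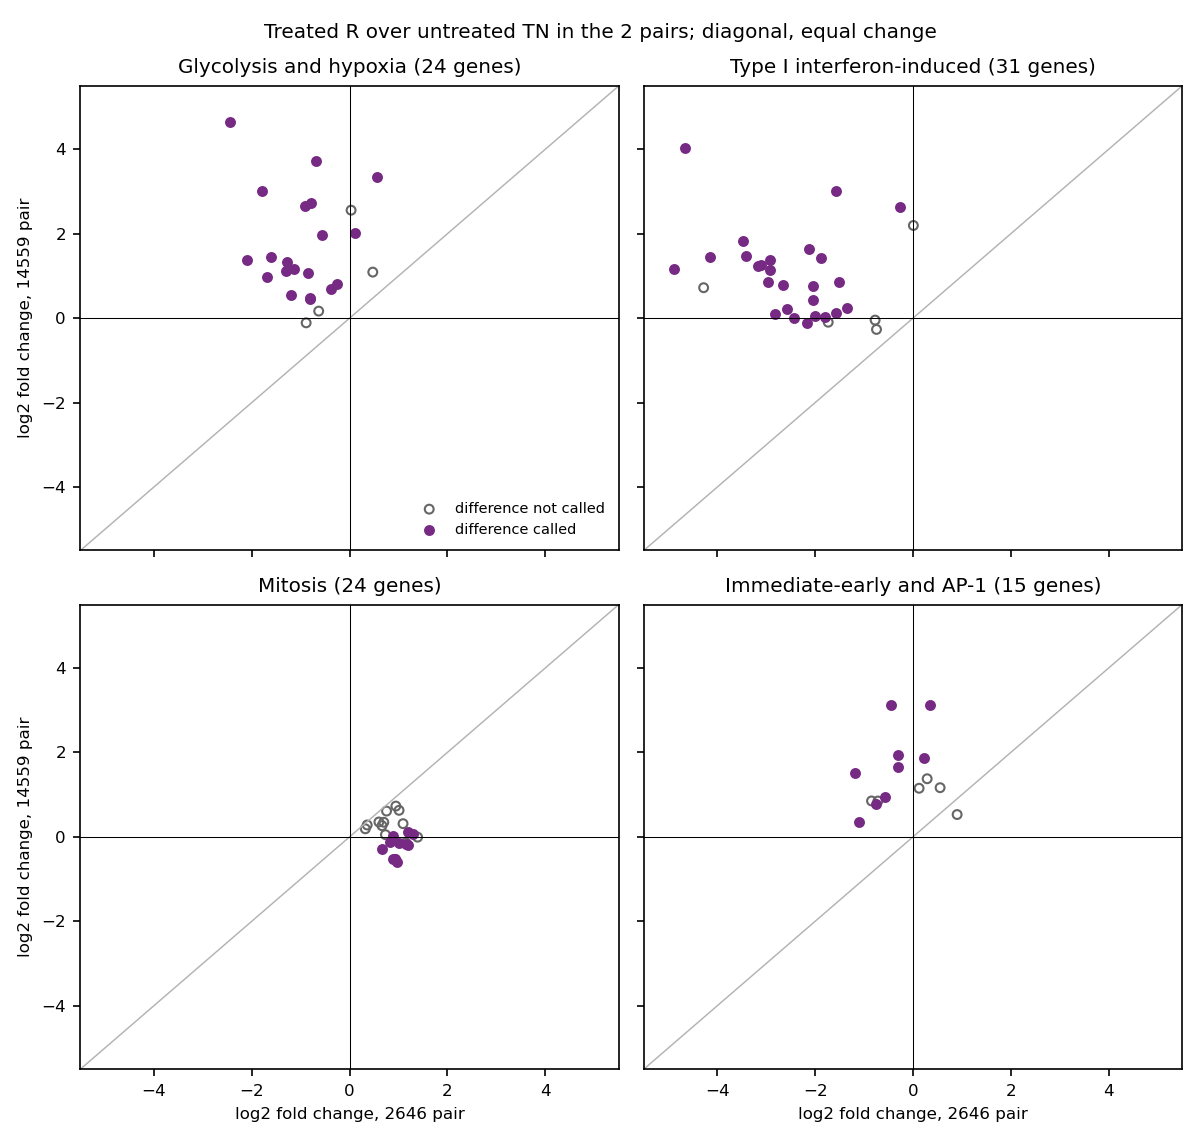
Log2 differences of the members of 4 lists in the 2646 contrast (x axis) and the 14559 contrast (y axis), 1 point a gene. Glycolysis members lie mostly left of 0 and above 0. Mitosis members lie mostly right of 0 on the x axis and near 0 on the y axis. Type I interferon members lie mostly left of 0 on the x axis.

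The lists that moved in the 14559 pair did not move alike in the 2646 pair. Glycolysis and hypoxia had a median of -0.83 in the 2646 contrast, with 0 of 24 genes higher and 14 lower, and the difference was called for 20 genes, all higher in the 14559 contrast. Vegfa measured 150, 168 and 138 CPM in untreated 2646TN and 64, 62.5 and 60 CPM in treated 2646R, a difference between contrasts of 2.41 (adjusted p = 2.6e-10). AP-1 genes had 0 of 15 higher and 3 lower in the 2646 contrast, with 9 called differences, all higher in the 14559 contrast. Mitosis ran the other way, with 21 of 24 genes higher in the 2646 contrast (median 0.94) and 12 called differences, all lower in the 14559 contrast. Mki67 measured 81.6, 60.5 and 110 CPM in untreated 2646TN and 152, 167 and 165 CPM in treated 2646R, a difference of -1.45 (adjusted p = 0.00426). Type I interferon genes had 27 of 31 lower in the 2646 contrast (median -2.16), and 26 differences were called, all higher in the 14559 contrast. The list summed to 1649 to 2206 CPM in untreated 2646TN and 382 to 586 CPM in treated 2646R. In the 14559 pair it summed to 450 to 694 CPM in untreated 14559TN and 376 to 1110 CPM in treated 14559R.

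Matrix genes were also compared between the pairs. Collagens had 9 of 18 members higher and 1 lower in the 2646 contrast (median 0.63), and the difference was called for 3 higher and 4 lower. The proteoglycan and elastic fibre list had 9 of 19 members higher and 2 lower in the 2646 contrast (median 0.52), and the difference was called for 4 higher and 6 lower. Col15a1 was among the collagens with a higher difference: it measured 139, 312 and 104 CPM in untreated 2646TN and 13, 12.9 and 15.9 CPM in treated 2646R, a difference of 6.83 (adjusted p = 7.13e-09). Pdgfa rose in both contrasts, by 1.33 and 1.43, and Plau by 3.79 and 2.31, and neither difference was called (adjusted p = 0.833 and 0.0604). Dkk2 and Tfap2b were lower in both contrasts, by -0.81 and -0.60 for Dkk2 and by -1.57 and -1.42 for Tfap2b. Dusp6 had a log2 difference of 0.45 in the 2646 contrast, and its difference between the contrasts was not called (1.23, adjusted p = 0.206).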

How the data were processed

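Whole-number counts per gene were deposited by the authors, 1 file a tumour, with 1 count column; per the file headers they were made by featureCounts, and the submitters' processing notes name STAR 2.6.0c, featureCounts 1.6.2 and GRCm38. The counts are raw, with no normalization and no record of molecular identifiers, so intervals on counts cover counting error only.

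Groups came from the clone and treatment labels, with 3 tumours each. All 30 libraries were fitted together in 10 groups with edgeR 4.0.16 in R 4.3.3 (filterByExpr by group, TMM factors, robust quasi-likelihood fit, 20 residual degrees of freedom). The fit tested 13286 genes, with a coefficient of biological variation of 18.2%. The threshold for a call was 0.05 on the p adjusted by Benjamini-Hochberg across the whole tested set. The standard error is the log2 difference divided by the square root of the F statistic, and CPM use the TMM factors. Against a group with no counts, a fold was computed from a floor of 3 counts over the group. The p-values rest on the spread between tumours within a group, estimated over all 10 groups, and not on any spread between clones. Replicates differed more in treated 14559R, with a chi-squared per degree of freedom of 10.5 to 15.3 between libraries, than in untreated 14559TN, with 3.26 to 4.46.

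The members, gene lists and tests were chosen with earlier results of these data known, so list counts are descriptions and not independent support. The naming rule took the 12 highest and 12 lowest called genes without overlap whose higher group averaged 5 CPM or more, up to 4 called and 2 uncalled members of each list, a fixed set of single genes (such as Mki67, Dusp6 and Mitf), and the 6 highest and 6 lowest differences between the pairs. Members that a list count names are also given by name. Some genes that the rule names are not reported here. RefSeq promoter windows of GRCm38.p6 were matched by symbol.

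The fit was first tested on simulated data with the spread of the fit. It called 56 of 99 genes (56.6%) given a log2 change of 1 and 78 of 94 (83.0%) given a change of 2. Another 6 genes without a change were called. An uncalled gene may therefore still have changed. The simulated data held far fewer changed genes than were called here, and each gene had the same spread in every group. These rates therefore need not hold for the 14559 contrast. Alternatives were DESeq2 1.42.0, DESeq2 size factors in edgeR, no filter on low counts, a fit of the compared groups alone or of the 4 groups of the 14559 pair, a macrophage marker covariate and each tumour left out in turn. The tumour codes in the titles differ between all groups and pair no samples.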

Additional observations from a re-analysis of the deposited data

Results flagged for a closer look

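The test of the difference between the 14559 contrast (treated 14559R minus untreated 14559TN) and the 2646 contrast (treated 2646R minus untreated 2646TN) called 1002 genes as higher and 864 as lower in the 14559 contrast. Values below are log2 differences between the contrasts, each with an edgeR adjusted p under 0.05.

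Among the fixed genes, those with a called difference included Vegfa (2.41), Spry2 (1.52), B2m (1.39), Mki67 (-1.45), Ccnd1 (-0.78) and Axl (-0.57). The angiogenic factor Vegfa and the ERK feedback gene Spry2 were called higher in the 14559 contrast and lower in the 2646 contrast, and Ccnd1 and Axl were called in neither. Leaving out 1 tumour ended the call of the difference for Axl (treated 2646R replicate 2, adjusted p = 0.0671), Ccnd1 (highest adjusted p = 0.0784, with treated 14559R replicate 1 and untreated 14559TN replicates 1 and 3 among the tumours) and B2m (highest adjusted p = 0.137, with treated 14559R replicates 1 and 2 and untreated 14559TN replicates 1 and 2 among the tumours).

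The highest differences belonged to Cacna1b (9.07), Krt20 (8.67), Col23a1 (8.48), Baiap2l1 (8.12), Nefl (8.05) and Adm (7.98). Adm, which encodes the vasoactive peptide adrenomedullin, measured 2.03, 1.54 and 4.79 CPM in untreated 14559TN and 35.4, 51.5 and 83.6 CPM in treated 14559R, and 14.4, 12.2 and 4.72 CPM in untreated 2646TN and 1.74, 0.469 and 0 CPM in treated 2646R. The neurofilament gene Nefl measured 13.2, 12.5 and 91.7 CPM in treated 14559R, so its spread there was wide. Krt20 was at or under 0.756 CPM in each 2646 library, and its difference was not called by DESeq2 or without any 1 of the 3 treated 14559R tumours.

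The lowest differences belonged to Ogn (-7.04), Ncald (-5.88), Eya4 (-5.88), Spon2 (-5.82), Hacd4 (-5.77) and Ltc4s (-5.61). Ogn, which encodes the matrix proteoglycan osteoglycin, measured 16.8, 10.1 and 13.1 CPM in untreated 14559TN and 1.81, 1.47 and 2.53 CPM in treated 14559R, while the 2646 pair went from 1.51, 0.623 and 0.674 CPM to 19.5, 24.4 and 11.9 CPM. Treated 14559TN tumours held 102, 132 and 151 CPM of Ogn. Ltc4s, the leukotriene C4 synthase gene, went from 31.2, 30.4 and 30.8 CPM to 6.35, 2.69 and 9.6 CPM in the 14559 pair. The call of Eya4 in the 14559 contrast itself (adjusted p = 0.0499) was lost when any of the 6 tumours was left out.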

How the results depend on the processing

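Leaving out 1 tumour at a time gave 736 to 1051 higher and 490 to 853 lower genes in the 14559 contrast, with treated 14559R replicate 3 giving the fewest, and 912 to 1134 lower genes in the 2646 contrast, with treated 2646R replicate 2 giving the fewest. The other alternatives gave 1073 to 1231 higher and 792 to 967 lower genes in the 14559 contrast. Of the 2001 calls, 1988 were kept by DESeq2, 1975 with DESeq2 size factors, 1693 with no filter on low counts, 1658 in a fit of the compared groups alone and 1162 to 1620 with a tumour left out. The macrophage covariate kept 1751. Of 164 called named genes 109 kept the call under every alternative run, and 55 lost it under at least 1. Of 105 uncalled named genes 26 were called under at least 1. Cdh5 was the only named gene to change sign, where leaving out 1 tumour gave -0.0308 to 3.14, the lowest without treated 14559R replicate 3. The cause of these shifts was not tested. DESeq2 size factors moved the median of all genes by -0.006 on the log2 scale. No paired analysis was possible because the titles give every tumour a code of its own and no replicate number is shared between groups. With 3 tumours a group and a few counts a library, uncalled genes at low CPM could still differ.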
